A study of Mus musculus with 15 samples.

Results

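The collagen genes were followed across the brain cortex of adult female mice in 3 groups of 5 arrays each. The first group was exercised SAMP8 mice (replicates 11 to 15), the second sedentary SAMP8 mice (replicates 6 to 10), and the third sedentary SAMR1 mice (replicates 1 to 5). SAMP8 mice are prone to accelerated senescence and lose memory early, and SAMR1 mice come from a related line that resists it and commonly serves as the control. There was no exercised SAMR1 group, so exercise was tested within SAMP8 only, and the strains also differ at many loci that have no tie to ageing. Members were all array features whose single gene symbol had the form Col, number, a, number. There were 101 such features of 42 genes among 45220 features. Values were present for 83 of these features and for 40 of the genes. The features of Col12a1 and Col28a1 were empty, and Col6a3 and Col6a5 had no feature under the rule.

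Collagens are extracellular proteins built from 3 chains wound into a triple helix, and each chain is the product of its own gene. Fibrillar collagens form the ropes of connective tissue, FACIT collagens sit on fibril surfaces, and type IV collagen forms the sheet of basement membranes. In the brain, the fibrillar types are made mainly by the fibroblasts of the meninges and of the walls of larger vessels, while type IV surrounds capillaries. Some collagens, such as Col25a1 and Col19a1, are made by neurons.

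The 250 bases upstream of the annotated start are shown for the 2 genes that passed the test between sedentary SAMP8 and SAMR1 mice, Col11a2 and Col9a2. They are followed by those of Col11a1, whose chain shares a trimer with that of Col11a2, and of Col8a1 and Col8a2, a pair of chains that varied together between arrays. Sequences are RefSeq's on GRCm38.p6, written 5′ to 3′ on the strand of the gene. Capitals mark exact matches on either strand to the TATA box (TATAAA or TTTATA), the CCAAT box (CCAAT or ATTGG) and the GC box (GGGCGG or CCGCCC).
Col11a2, chr17:34038888-34039137, plus strand: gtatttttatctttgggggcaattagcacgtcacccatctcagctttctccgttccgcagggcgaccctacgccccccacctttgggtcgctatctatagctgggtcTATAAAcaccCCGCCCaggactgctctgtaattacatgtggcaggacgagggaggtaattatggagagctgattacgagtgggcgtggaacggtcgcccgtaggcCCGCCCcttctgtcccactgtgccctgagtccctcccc
Col9a2, chr4:121039316-121039565, plus strand: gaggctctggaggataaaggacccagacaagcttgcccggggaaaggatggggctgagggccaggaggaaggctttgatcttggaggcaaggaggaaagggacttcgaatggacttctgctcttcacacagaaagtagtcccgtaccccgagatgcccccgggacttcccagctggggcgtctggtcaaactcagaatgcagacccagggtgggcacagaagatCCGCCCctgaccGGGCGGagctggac
Col11a1, chr3:114030290-114030539, plus strand: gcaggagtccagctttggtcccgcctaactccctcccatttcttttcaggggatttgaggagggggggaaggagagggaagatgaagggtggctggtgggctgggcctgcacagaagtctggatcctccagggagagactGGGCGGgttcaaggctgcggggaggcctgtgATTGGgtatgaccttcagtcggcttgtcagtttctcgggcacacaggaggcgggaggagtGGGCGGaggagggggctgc
Col8a1, chr16:57754738-57754987, minus strand: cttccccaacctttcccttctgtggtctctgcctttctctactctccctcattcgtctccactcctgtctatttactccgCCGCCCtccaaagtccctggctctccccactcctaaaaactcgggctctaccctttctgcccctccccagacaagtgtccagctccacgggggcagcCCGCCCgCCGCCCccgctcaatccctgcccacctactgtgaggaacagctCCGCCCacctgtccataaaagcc
Col8a2, chr4:126286544-126286793, plus strand: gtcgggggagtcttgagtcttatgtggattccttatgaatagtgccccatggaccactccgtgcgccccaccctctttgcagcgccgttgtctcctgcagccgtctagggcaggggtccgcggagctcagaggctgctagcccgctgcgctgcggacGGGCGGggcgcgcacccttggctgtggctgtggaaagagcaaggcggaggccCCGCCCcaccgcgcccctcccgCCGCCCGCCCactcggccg
All 5 windows held a GC box, Col8a1 and Col8a2 with 4 matches each, whereas the 2 other motifs were rarer in them. A TATA box match was found only in the Col11a2 window, 143 bases before the start, and a CCAAT box match only in that of Col11a1, 79 bases before the start. Among all 32851 upstream windows of this length, 12.4% held the TATA box letters, 33.8% the CCAAT box letters and 32.7% the GC box letters. The 5 windows shown were 57.6% to 70% G or C, against a median of 52.4% over all windows. The shares over all windows were not matched for this. No base fell in matches to more than 1 of the 3 motifs.

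The deposited intensities were already on a common scale, with a median of 208 to 209 on every array, and the lower quartile of all values was 72.1, which is 6.17 on the log2 scale. Of the 40 collagen genes, 27 (67.5%) were at or above that quartile on all arrays, against 73.7% of all 16401 genes. Col6a6, of the beaded filaments, and Col17a1, a hemidesmosome collagen of skin, were under it on every array. Collagen genes varied more between arrays of a group than most genes did. Their median within-group SD was 0.28 log2, and still 0.25 for the 27 brighter genes, against 0.19 for all genes. It was lowest for Col9a2 at 0.13 and highest for Col6a6 at 0.74.

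Each subfamily is represented by the gene whose feature had the highest mean in it, with levels given as log2 intensity in exercised SAMP8, sedentary SAMP8 and sedentary SAMR1 mice. Col1a2, a chain of type I collagen, averaged 10.69, 10.70 and 10.29. Col16a1, a FACIT collagen, averaged 10.10, 9.98 and 9.98. Col8a1, a chain of the network-forming type VIII, averaged 9.24, 9.26 and 8.90. These were features of high signal in every group. Col18a1, a multiplexin of vascular basement membranes and the source of endostatin, averaged 9.15, 9.14 and 8.81. Col4a2, a main chain of basement membranes, averaged 8.92, 8.82 and 8.96. Col6a1, of the beaded filaments, averaged 8.42, 8.24 and 8.65. None of these 6 genes passed the test in any comparison. Col26a1, of no large subfamily, averaged 8.56, 8.26 and 8.56, Col7a1, of the anchoring fibrils, 8.34, 8.35 and 8.51, and the transmembrane Col23a1 averaged 7.80, 7.67 and 7.64.

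Sedentary SAMP8 and sedentary SAMR1 cortex differed at 2 collagen genes. Col11a2, which encodes the α2 chain of the fibrillar type XI collagen, was 2.31-fold lower in SAMP8, and Col9a2, the α2 chain of the FACIT type IX collagen, was higher by 0.79 log2. Type IX and type XI collagens are both known as minor components of cartilage fibrils. The 2 genes were 5.00% of the 40 collagen genes, while 3.03% of all 16401 genes passed at a limma adjusted p under 0.05 (1.85% higher and 1.18% lower in SAMP8). Of the 40 differences 23 were positive and 17 negative, with a median of 0.033 log2 for collagens and 0.019 for all genes, and 12 collagen genes (30%) had an unadjusted p under 0.05, where 14.3% of all genes did. All 12 were among the 27 brighter genes (44.4% of them). The 14.3% covers genes of any brightness, dim ones included, and is not matched to these 27.

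Col11a2 measured 8.33, 8.55, 8.68, 8.42 and 8.57 log2 on the arrays of sedentary SAMP8 replicates 6 to 10, and 9.71, 9.86, 9.66, 9.57 and 9.79 on those of SAMR1 replicates 1 to 5. All SAMP8 arrays were below all SAMR1 arrays, with a gap of most of a log2 unit between the groups. The means were 8.51 ± 0.14 and 9.72 ± 0.11 (SD, n = 5 each), a difference of -1.21 ± 0.11 log2 (SE) with a limma adjusted p of 4.65e-06. The difference stayed between -1.25 and -1.16 when any 1 array was left out. A second, dim feature of Col11a2, under the lower quartile on 12 of 15 arrays, gave -0.17 ± 0.30. Averaged over both features, the difference was -0.69, with a limma adjusted p of 0.0398. The partner chain Col11a1 differed by -0.29 ± 0.27 (limma adjusted p 0.684).

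Col11a2 lies on chromosome 17 in the major histocompatibility region. Of the 20 nearest measured protein-coding genes, 10 on each side, 4 (20%) passed the same limma test, 3 lower and 1 higher in sedentary SAMP8, where 3.03% of all genes passed. They were H2-DMb2 (-0.63), H2-DMb1 (-0.52), which encode chains of an MHC class II loading factor and are near-identical copies, Vps52 (-0.28), and Tap2 (0.31), a peptide transporter subunit. Among the 20 neighbours of Col9a2 on chromosome 4, of Col1a1 on chromosome 11 and of Col13a1 on chromosome 10, none passed in this comparison. Whether strain differences in the DNA under the probes or near these genes contribute was not tested.

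Col9a2 had the opposite pattern. It measured 8.90, 8.87, 8.91, 9.16 and 8.91 log2 in sedentary SAMP8 mice, against 8.13, 8.33, 8.10, 8.16 and 8.08 in SAMR1 mice, with no overlap. The means were 8.95 ± 0.12 and 8.16 ± 0.10 (SD, n = 5 each), which is 0.79 ± 0.088 log2 (SE) higher in SAMP8 (limma adjusted p 5.35e-05). Only 1 feature with values read Col9a2, so no other feature could be set beside it. Col9a2 and Col11a2 were the 2 collagens whose groups did not overlap here, 5.00% of the 40 genes, where 4.57% of all genes had groups that did not overlap (2.92% higher and 1.65% lower in SAMP8). Col9a3, the α3 chain of type IX, differed by 0.29 ± 0.14 (limma adjusted p 0.348). Col9a1, the α1 chain, differed by 0.14 ± 0.17 and was under the lower quartile on 14 of 15 arrays. Of the type IX chains, Col9a2 therefore was the one that passed the test.

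**Figure D1:**
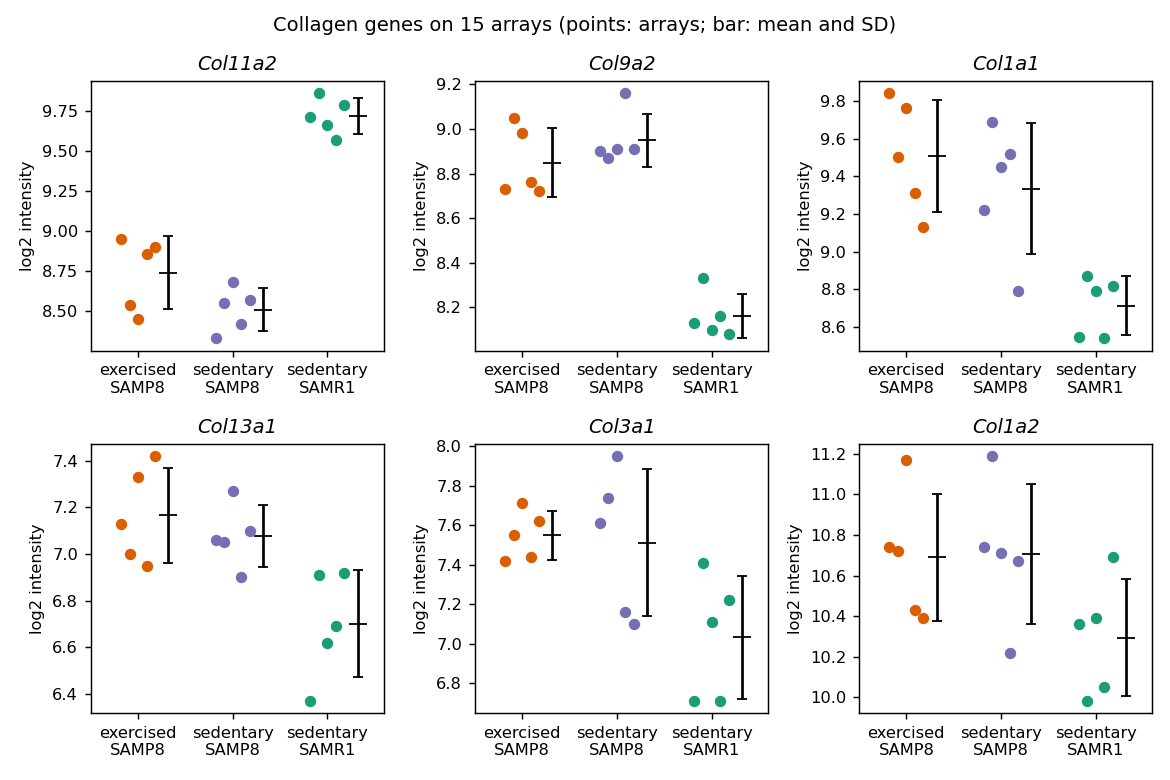
Log2 intensity (vertical axes) of 6 collagen genes on each array, for exercised SAMP8, sedentary SAMP8 and sedentary SAMR1 mice from left to right. Points are arrays and the bars give mean and SD (n = 5 per group). For Col11a2 both SAMP8 groups (means 8.74 and 8.51) sit below SAMR1 (9.72), and for Col9a2 both (8.85 and 8.95) sit above it (8.16).

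The genes of type I and type III collagen, the main fibrils of meningeal connective tissue, came next. Col1a1, the α1 chain of type I, measured 9.22, 9.69, 9.45, 9.52 and 8.79 log2 in sedentary SAMP8 mice, against 8.55, 8.87, 8.79, 8.54 and 8.82 in SAMR1 mice. Replicate 10 was the single SAMP8 array within the SAMR1 range. The difference was 0.62 ± 0.17 and missed the threshold (limma adjusted p 0.0605). Of the 10 fits that left out 1 array, it passed only without replicate 10 (0.75, limma adjusted p 0.0101). Over those fits the difference was 0.53 to 0.75, and the limma adjusted p reached 0.154. It also passed at 0.67 with the mean of the features of Col1a1 (limma adjusted p 0.0457), and at 0.62 without the dimmest 30% of genes (0.0339) or with a trended, robust prior (0.0290). It missed with only the 2 groups compared (limma adjusted p 0.0723), an offset of 16 (0.0508), quantile scaling (0.0604) and median scaling (0.06). The brightest feature also missed when each feature was fitted on its own (0.0711). All 11 Col1a1 features with values were higher in sedentary SAMP8, by 0.58 to 0.82, and 3 passed when each feature was fitted on its own, where 2.61% of all features did. These features read the same transcripts and are not separate evidence.

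Col1a2, the partner chain of Col1a1 in type I collagen, measured 10.74, 11.19, 10.71, 10.22 and 10.67 log2 in sedentary SAMP8 mice, against 10.36, 9.98, 10.39, 10.05 and 10.69 in SAMR1 mice. The groups overlapped, and the difference of 0.41 ± 0.19 did not pass (limma adjusted p 0.331). Col3a1, type III collagen, measured 7.61, 7.74, 7.95, 7.16 and 7.10 in sedentary SAMP8 mice, against 6.71, 7.41, 7.11, 6.71 and 7.22 in SAMR1 mice. Its difference was 0.48 ± 0.17 (limma adjusted p 0.190), and a second feature, under the lower quartile on every array, gave -0.04. Col13a1, a transmembrane collagen, differed by 0.37 ± 0.12 (limma adjusted p 0.141).

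In the other subfamilies no gene passed in the comparison of sedentary SAMP8 with SAMR1 mice. The 6 type IV genes gave 3 positive and 3 negative differences with a median of -0.058. Col4a1 and Col4a2, the chains of nearly all basement membranes, differed by -0.18 ± 0.11 and -0.14 ± 0.18. The 4 beaded filament genes gave 2 of each sign and a median of -0.013. All 4 transmembrane genes were positive, with a median of 0.29. Of the network-forming genes, Col8a1 differed by 0.36 ± 0.14 and Col8a2 by 0.53 ± 0.22 (limma adjusted p 0.258 and 0.274), and Col10a1, the collagen of hypertrophic cartilage, by -0.12 ± 0.33. Col18a1 differed by 0.33 ± 0.12 and its fellow multiplexin Col15a1 by -0.27 ± 0.20 (limma adjusted p 0.197 and 0.581). The neuronal Col19a1 differed by -0.41 ± 0.16 and Col25a1 by 0.20 ± 0.12 (limma adjusted p 0.253 and 0.465).

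**Figure D2:**
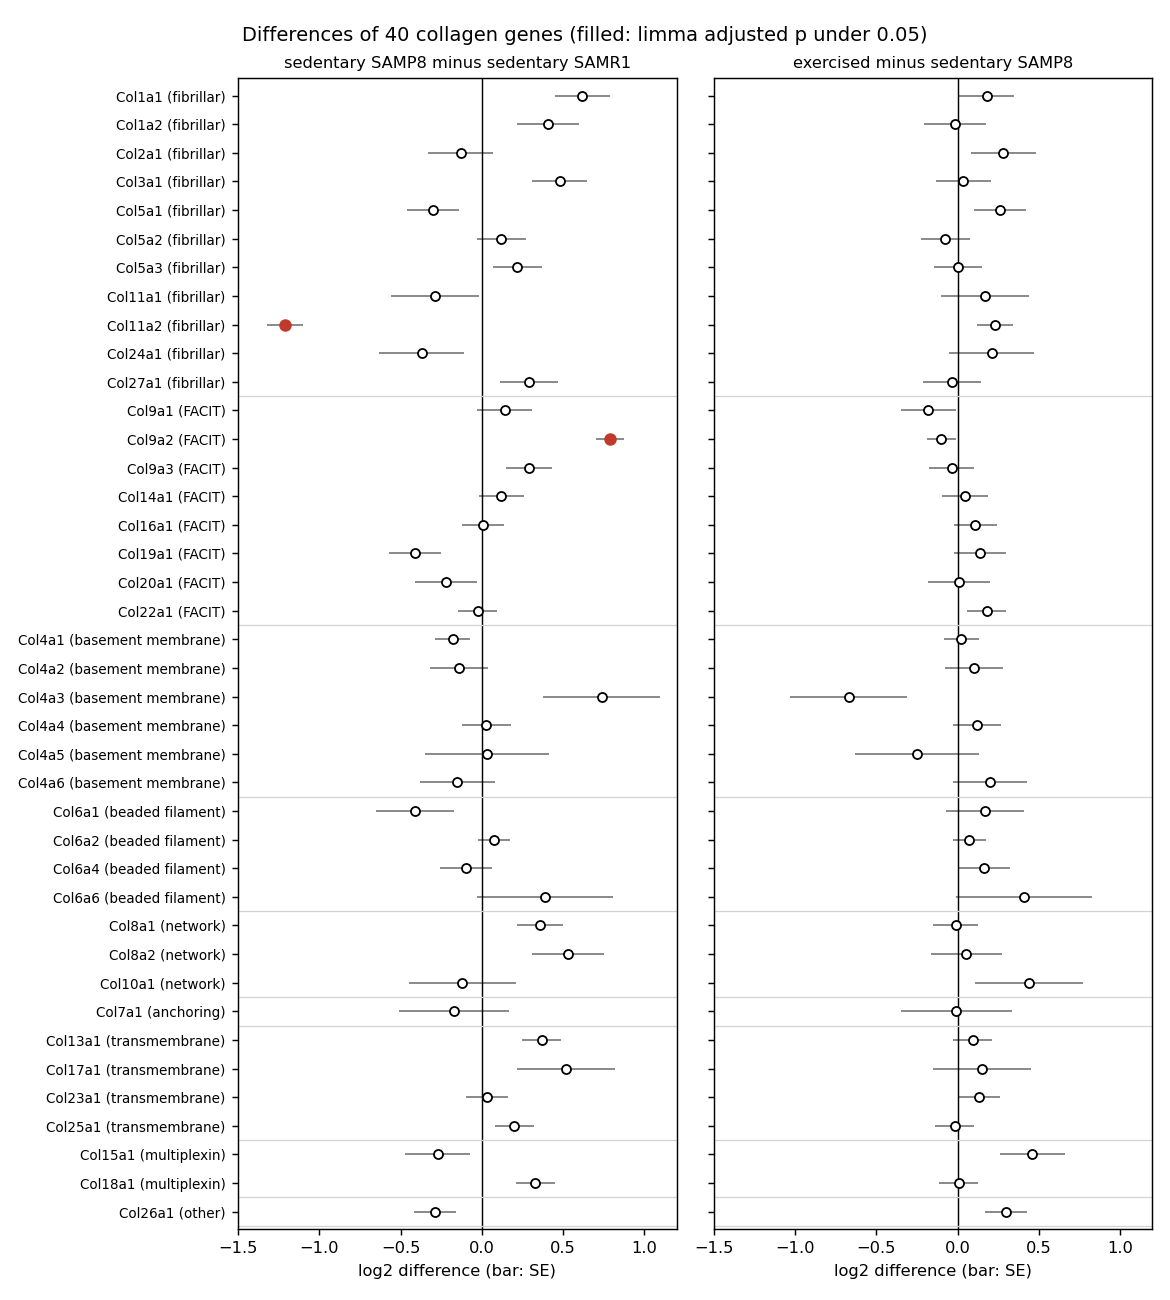
Log2 differences (horizontal axes) of the 40 collagen genes between sedentary SAMP8 and sedentary SAMR1 mice (left) and between exercised and sedentary SAMP8 mice (right), grouped by subfamily; bars are SE and filled points have a limma adjusted p under 0.05. Col11a2 (-1.21) and Col9a2 (0.79) are filled on the left and no gene is filled on the right.

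Exercise within SAMP8 moved no collagen gene past the threshold. By limma, 0 of 40 collagen genes passed, as did 0 of all 16401 genes (0%), and the smallest adjusted p among collagens was 0.682. At an unadjusted p under 0.05 there were 3 collagen genes (7.5%), where 7.08% of all genes were. No collagen gene had groups that did not overlap, where 1.1% of all genes had. Of the 40 differences 29 were positive and 11 negative, with a median of 0.10 log2, whereas 9092 of all 16401 genes were positive, with a median of 0.020. The mean over the 40 genes of each array's deviation from the gene's mean was 0.017, 0.0092, -0.0061, 0.067 and 0.29 in exercised replicates 11 to 15, against -0.17, -0.058, 0.21, -0.076 and 0.049 in sedentary replicates 6 to 10. Exercised replicate 15 alone was above all sedentary SAMP8 arrays.

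The 5 collagens with the smallest p for exercise were Col15a1, Col26a1, Col11a2, Col4a3 and Col5a1. Col15a1, a multiplexin that links basement membranes to the fibrils around them, measured 6.49, 6.44, 6.08, 6.57 and 7.17 log2 in exercised mice, against 5.71, 5.89, 6.41, 6.17 and 6.24 in sedentary SAMP8 mice. The groups overlapped, and the difference was 0.46 ± 0.20 (limma adjusted p 0.682). Col26a1 differed by 0.30 ± 0.13, Col11a2 by 0.23 ± 0.11 and Col5a1, a chain that sets fibril diameter, by 0.26 ± 0.16 (limma adjusted p 0.687, 0.702 and 0.763). Col4a3, a chain of kidney and lung basement membranes, differed by -0.67 ± 0.36 (limma adjusted p 0.720) and was under the lower quartile on 14 of 15 arrays. Second features of Col4a3 and Col5a1, under the lower quartile on all 15 arrays, had the opposite sign (0.36 and -0.083). The standard errors of the 40 differences, between 0.088 and 0.42 log2, limit what this design could detect.

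Exercised SAMP8 mice were also set against the sedentary SAMR1 mice, which differ from them in both strain and exercise. This comparison shares the SAMR1 arrays with the sedentary one, so both are given side by side and are not independent. By limma, 4 of 40 collagen genes passed (10.0%), where 4.26% of all genes did (2.8% higher and 1.45% lower): Col9a2, Col1a1 and Col13a1 were higher and Col11a2 was lower in exercised SAMP8. At an unadjusted p under 0.05 there were 9 collagen genes (22.5%), where 18.2% of all genes were. Col11a2 measured 8.95, 8.54, 8.45, 8.86 and 8.90 log2 in exercised mice, all below SAMR1, and differed by -0.98 ± 0.11 (limma adjusted p 4.78e-05). Averaged over its 2 features, the difference was -0.50, and the call was lost (limma adjusted p 0.132). Col9a2 measured 8.73, 9.05, 8.98, 8.76 and 8.72, all above SAMR1, and differed by 0.69 ± 0.088 (limma adjusted p 0.000194).

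Col1a1 measured 9.84, 9.50, 9.76, 9.31 and 9.13 log2 in exercised SAMP8 mice, all above the SAMR1 arrays given earlier, and differed by 0.79 ± 0.17, or 1.73-fold (limma adjusted p 0.0118). Its 11 features differed by 0.55 to 0.82, and 5 of them passed on their own, where 3.28% of all features did. Col13a1 measured 7.13, 7.00, 7.33, 6.95 and 7.42 in exercised SAMP8 mice, against 6.37, 6.91, 6.62, 6.69 and 6.92 in SAMR1 mice. The difference was 0.46 ± 0.12 (limma adjusted p 0.0416). This call was near the threshold: it was lost without any 1 of replicates 1, 3, 4, 11, 13 and 15 (0.38 to 0.47, limma adjusted p 0.0695 to 0.108), with only the 2 groups compared in the fit (0.0944), and with each feature fitted on its own (0.055). Col3a1 differed by 0.52 ± 0.17 (limma adjusted p 0.111), and its second feature, under the lower quartile on every array, gave -0.15. Of the 40 collagen genes, 4 had groups that did not overlap and were higher: Col1a1, Col3a1, Col9a2 and Col13a1. Only 1, Col11a2, was lower without overlap. Over all genes the share was 5.8% (3.96% higher and 1.84% lower). The margin was narrow for Col3a1 (lowest exercised array 7.42, highest SAMR1 array 7.41) and for Col13a1 (6.95 and 6.92).

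Several collagen genes were read by more than 1 feature, which showed where a gene's value hung on the feature chosen. Of the 21 genes with several features, all features had the same sign for 14 between sedentary SAMP8 and SAMR1 mice, for 9 between exercised and sedentary SAMP8 mice, and for 16 between exercised SAMP8 and SAMR1 mice. Col4a6, a chain of basement membranes of smooth muscle was read differently by its 3 features in the comparison of the sedentary groups. Its brightest feature gave -0.15 ± 0.23, while a feature under the lower quartile on all 15 arrays gave 1.28 ± 0.25 (limma adjusted p 0.0091, over all features) and another gave 0.37 ± 0.14. With the mean of its features Col4a6 passed, at 0.50 in sedentary SAMP8 and 0.41 in exercised SAMP8 against SAMR1 (limma adjusted p 0.00408 and 0.0145). Col2a1, the collagen of cartilage, had 11 features with values, and none passed in any comparison.

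Partner chains of 1 trimer were compared across the 15 arrays after each group's mean was taken out, for 11 pairs, with permutations within groups and p adjusted over the pairs. Col8a1 and Col8a2 varied together, with Pearson's r of 0.73 (adjusted permutation p 0.0308) and Spearman's rho of 0.79 (adjusted permutation p 0.0199), and r was 0.74 without the 2 arrays farthest from the median of Col8a1. Col11a1 and Col11a2 gave r of 0.72 (adjusted permutation p 0.0308) and rho of 0.74 (adjusted permutation p 0.0254), with r of 0.65 without the 2 farthest arrays. That relation fell to 0.51 with the mean of all features of each gene (adjusted permutation p 0.203). The relation between Col11a1 and Col11a2 thus passed with the brightest feature of each gene and not with the mean of features. Collagens that share no trimer were not compared in this way. These values therefore cannot show whether the relations are particular to partner chains.

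For the main chains of type IV, Col4a1 and Col4a2, r was 0.51 and rho 0.54 (adjusted permutation p 0.281 and 0.213), and r was 0.36 without the 2 farthest arrays. With the mean of all features of each gene r was 0.74 (adjusted permutation p 0.0117). Col6a1 and Col6a2 gave r of 0.58 and rho of 0.59 (adjusted permutation p 0.0832 and 0.116). Col1a1 and Col1a2 gave 0.41 for both measures (adjusted permutation p 0.291 and 0.263), Col5a1 and Col5a2 0.42 for both (0.291 and 0.263). The other 5 pairs, in types IV and IX, had r between -0.38 and 0.045, and most of them held a chain of low signal.

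**Figure D3:**
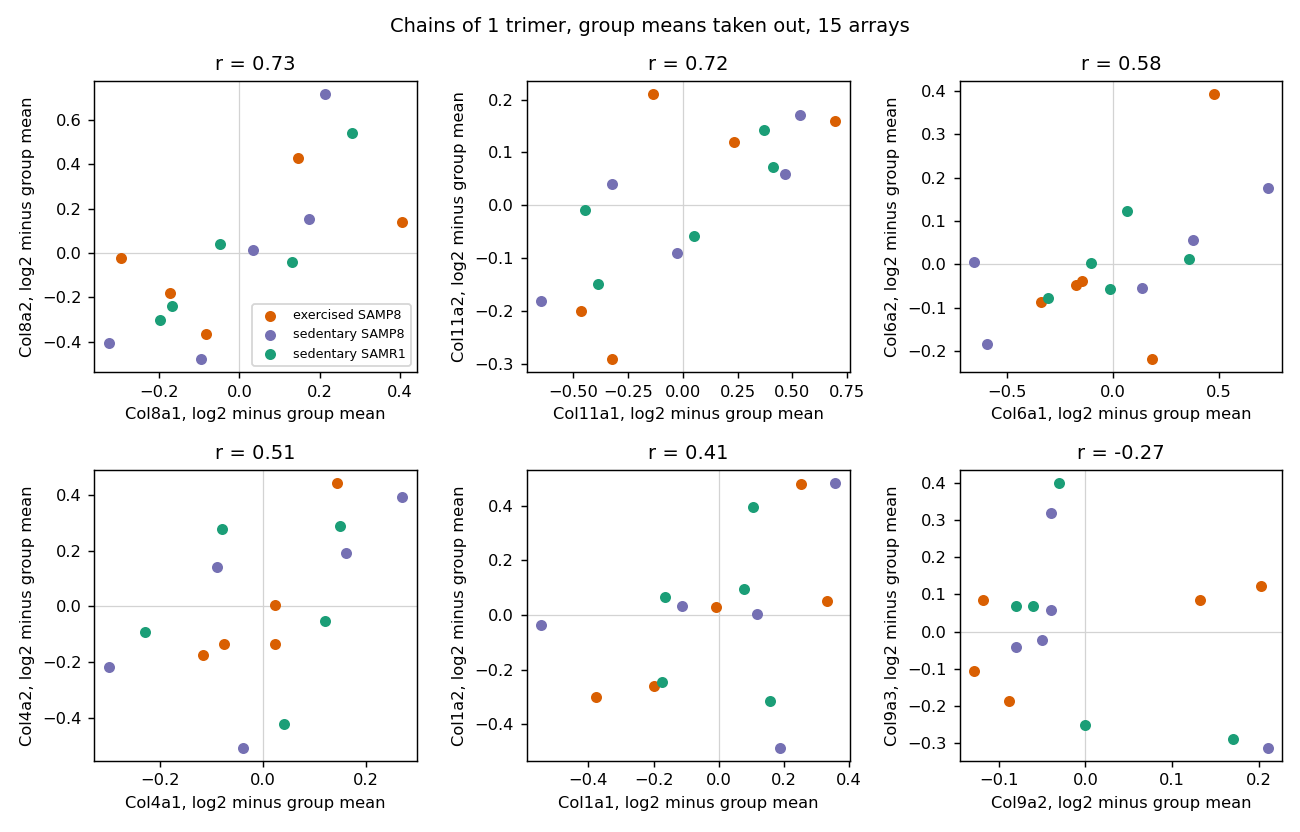
Log2 intensity of 1 chain (horizontal) against its partner chain (vertical), each minus its group mean, for 6 pairs over 15 arrays; colours are exercised SAMP8, sedentary SAMP8 and sedentary SAMR1. The points rise together for Col8a1 and Col8a2 (r = 0.73) and for Col11a1 and Col11a2 (r = 0.72), and do not for Col9a2 and Col9a3 (r = -0.27).

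A set of collagens shared part of its spread on a few arrays. These genes and arrays were picked out after their values were seen, and the shared part was not measured. Col6a1 was 7.65 and 7.59 log2 on sedentary SAMP8 replicates 6 and 7, and 8.97, 8.38 and 8.62 on replicates 8 to 10. Col7a1 was 7.40 and 7.58 on replicates 6 and 7, and 9.32, 8.93 and 8.50 on the other 3. Col11a1 was 6.80 and 7.12, and 7.98, 7.42 and 7.91 on the same arrays. These genes were thus low on the same pair of sedentary arrays. Among exercised mice, replicate 15 was the highest array for Col6a1 (8.89), Col7a1 (8.99), Col11a1 (8.31), Col15a1 (7.17) and Col27a1 (7.31). Other collagens went the other way. Replicate 15 was the lowest exercised array for Col1a1 (9.13), Col1a2 (10.39), Col8a2 (6.78), Col9a2 (8.72) and Col17a1 (5.42). Col4a4 was higher on sedentary SAMP8 replicates 6 and 7 (8.11 and 8.28) than on replicates 8 to 10 (7.99, 7.96 and 7.59). The slides and scans of the arrays were not given in the sources used here, and their part in this was not tested.

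**Figure D4:**
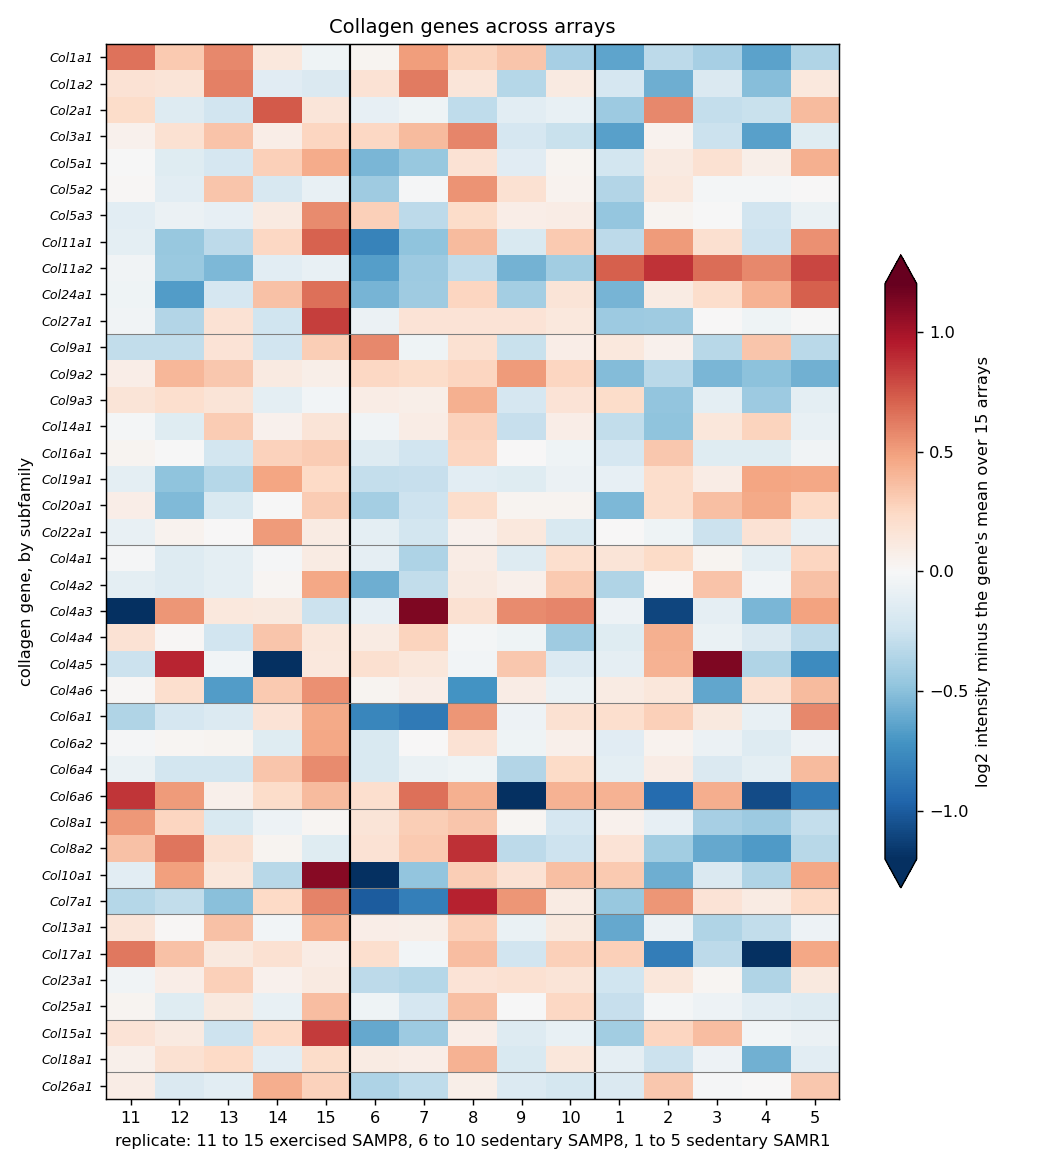
Log2 intensity of each of 40 collagen genes (rows, by subfamily) minus the gene's mean over 15 arrays (columns: exercised SAMP8, sedentary SAMP8, sedentary SAMR1). Colours saturate at the ends of the scale bar. Col11a2 is red on all SAMR1 arrays and Col9a2 blue, while Col6a1, Col7a1 and Col11a1 are blue on sedentary replicates 6 and 7 and red on replicate 15.

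The machinery that makes, joins, cuts and senses collagen was followed with lists of genes. These lists were chosen with earlier results of these data known. The share of a list that passed therefore describes its genes and is no test of the list. Of 8 receptors measured, 3 passed the limma test as higher in sedentary SAMP8 than in SAMR1 mice and none passed as lower (37.5%, where 3.03% of all genes passed), while over all 8 the differences were 4 positive and 4 negative with a median of 0.035. Ddr2, a receptor tyrosine kinase that fibrillar collagens activate, measured 8.87, 8.55, 8.82, 8.67 and 8.73 log2 in sedentary SAMP8 mice, against 7.07, 6.83, 7.28, 7.06 and 7.49 in SAMR1 mice. The groups lay far apart, at 1.58 ± 0.11 (limma adjusted p 3.87e-07), and a second feature of Ddr2 gave 1.11. Itga11, the α chain of an integrin that binds type I collagen, measured 9.27, 9.55, 9.70, 9.66 and 9.77 in sedentary SAMP8 mice, against 8.06, 7.75, 8.21, 8.17 and 8.75 in SAMR1 mice, and differed by 1.40 ± 0.23 (limma adjusted p 0.00167). Adgrg1, an adhesion receptor for type III collagen in the developing cortex, differed by 0.74 ± 0.10 (limma adjusted p 0.000395), with no overlap. All 3 calls held when any 1 array was left out. Itga11 and Adgrg1 had no other feature with values. Itga1, the α chain of another collagen-binding integrin, gave -0.67 ± 0.18 (limma adjusted p 0.0555), and the inhibitory receptor Lair1 gave -0.37 ± 0.14 (limma adjusted p 0.226).

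In exercised SAMP8 against SAMR1 mice 4 of the 8 receptors passed (50%, where 4.26% of all genes did). Ddr2 was higher by 1.76, Itga11 by 1.44 and Adgrg1 by 0.83 (limma adjusted p 1.09e-07, 0.00124 and 0.000128). The second feature of Ddr2 gave 0.53 here, a smaller difference than the first. Itga1 was lower in exercised SAMP8, at -0.98 ± 0.18 (limma adjusted p 0.00366), but its other 3 features gave 0.11, -0.35 and 0.16, and the mean of its features gave -0.27 (limma adjusted p 0.261). None of the 8 receptors passed for exercise against sedentary SAMP8, where the smallest p belonged to Gp6 (0.39 ± 0.19) and Itga1 (-0.32 ± 0.18).

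**Figure D5:**
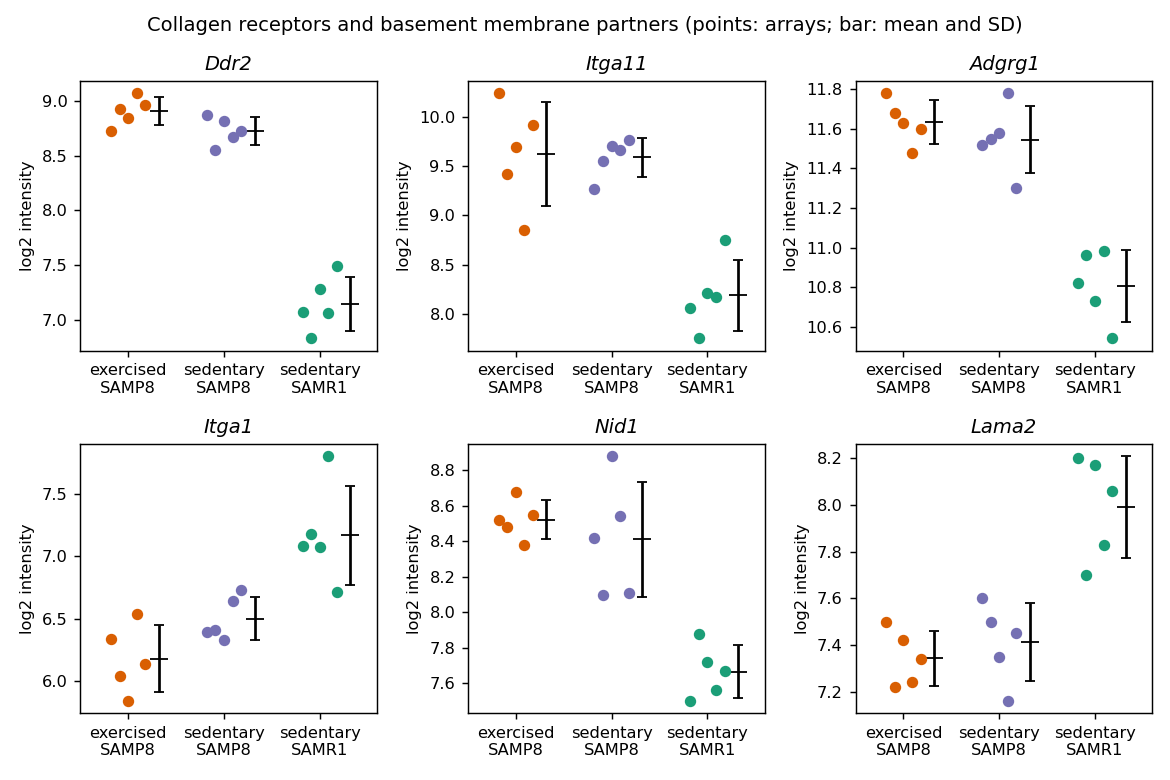
Log2 intensity (vertical axes) of 4 collagen receptors and 2 basement membrane partners on each array, for exercised SAMP8, sedentary SAMP8 and sedentary SAMR1 mice from left to right; bars give mean and SD (n = 5 per group). Ddr2, Itga11, Adgrg1 and Nid1 are higher in both SAMP8 groups than in SAMR1, and Lama2 is lower.

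Of 13 basement membrane partners of type IV collagen, 1 passed the limma test as higher and 1 as lower in each SAMP8 group against SAMR1 (15.4%, where 3.03% of all genes passed in sedentary and 4.26% in exercised SAMP8). The signs over the list were 9 positive and 4 negative in sedentary SAMP8, and 8 positive and 5 negative in exercised SAMP8. Nid1, which bridges laminin and type IV collagen, differed by 0.74 ± 0.13 in sedentary and 0.86 ± 0.13 in exercised mice (limma adjusted p 0.00384 and 0.00108). It had no other feature with values. Lama2, the laminin α2 chain, differed by -0.58 ± 0.11 and -0.65 ± 0.11 (limma adjusted p 0.00696 and 0.0026), and lost both calls with the mean of its features (-0.41 and -0.42, limma adjusted p 0.082 and 0.0655). Thus Nid1 and Lama2 differed in opposite directions, while no type IV gene passed by its brightest feature. With the mean of features the type IV gene Col4a6 passed in sedentary and exercised SAMP8, at 0.50 and 0.41 (limma adjusted p 0.00408 and 0.0145).

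In the remaining lists at most 1 gene passed per comparison. Over all genes, 3.03% passed in sedentary and 4.26% in exercised SAMP8 against SAMR1. A single gene made up 6.25% of the biosynthesis list, 10% of the processing and crosslinking list and 8.33% of the degradation list. Single calls in lists this short say little about a list as a whole. Of 16 biosynthesis genes, Plod2, a lysyl hydroxylase that prepares collagen for crosslinking, was lower in sedentary SAMP8 than in SAMR1, at -0.58 ± 0.13 (limma adjusted p 0.0167). Without replicate 5 the Plod2 difference was -0.51 (limma adjusted p 0.0503). None of the 16 passed in exercised SAMP8 against SAMR1, where Ppib (0.41 ± 0.12) and the collagen chaperone Serpinh1 (0.51 ± 0.16) came nearest. Plod2 came close behind Serpinh1 and was again lower, at -0.40 ± 0.13 (limma adjusted p 0.0939, against 0.0932 for Serpinh1). Of 10 processing and crosslinking genes, Loxl1, a lysyl oxidase, was higher in sedentary SAMP8 by 0.49 ± 0.11 (limma adjusted p 0.0158), and none passed in exercised SAMP8, where Pcolce2 gave -0.70 ± 0.20 and Loxl1 0.32 ± 0.11. Of 12 degradation genes, Mmp2, a gelatinase, was higher in sedentary SAMP8 by 0.35 ± 0.083 (limma adjusted p 0.032). It was under the lower quartile on 8 arrays, and the call was lost without any 1 of replicates 1, 2, 3, 5, 6, 7 and 8 (0.31 to 0.36, limma adjusted p 0.0559 to 0.087), with an offset of 16 (0.051), with a trended, robust prior (0.18) and with only the 2 groups compared (0.0632). Timp3, an inhibitor of matrix proteases, was lower in exercised SAMP8 than in SAMR1, at -0.71 ± 0.14 (limma adjusted p 0.0092). In sedentary SAMP8 it gave -0.54 ± 0.14 against SAMR1 and just missed the threshold (limma adjusted p 0.0555). None of 8 regulators passed, and Ccn2, a matricellular protein induced by TGFβ, gave 0.44 ± 0.12 in sedentary and 0.35 ± 0.12 in exercised SAMP8 mice against SAMR1 (limma adjusted p 0.0555 and 0.11).

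For exercise against sedentary SAMP8, 0 genes of any of these lists passed by limma. The 2 genes with the smallest p were Sec23a (0.18) and Plod2 (0.18) in biosynthesis, Loxl4 (0.64, under the lower quartile on all 15 arrays) and Loxl1 (-0.17) in processing, Fap (0.21) and Mmp2 (-0.14) in degradation, Agrn (0.27) and Sparc (-0.34) among basement membrane partners, and Tgfbr1 (0.20) and Smad2 (0.12) among regulators.

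Markers of the cells that make fibrillar collagen were read beside these results. The marker lists, too, were chosen with earlier results of these data known, so their shares are no test of a list. All 12 meningeal fibroblast markers measured were at or above the lower quartile on every array, and all 12 were positive in sedentary and in exercised SAMP8 against SAMR1, with medians of 0.43 and 0.41. By limma, 1 of 12 (8.3%) passed in the first comparison, where 3.03% of all genes did, and 4 of 12 (33.3%) in the second, where 4.26% did. Their mean deviation per array ranged between -0.051 and 0.40 in exercised SAMP8, between 0.016 and 0.40 in sedentary SAMP8, and between -0.61 and -0.091 in SAMR1 mice. Lum, a proteoglycan that binds type I fibrils, differed by 0.70 and 0.65 (limma adjusted p 0.0114 and 0.0159). The calls of the other 3 in the second comparison, Dcn, Slc13a4 and Foxc1, held in 5, 3 and 2 of the 10 fits that left out 1 array, and that of Lum held in all 10. The part of these cells in the differences of Col1a1, Col3a1 and the other collagens was not tested, and in whole cortex fewer cells of a type and less RNA per cell cannot be told apart.

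Markers of vessels, choroid plexus and neurons were also read. By limma, 0 of 9 endothelial markers passed in either SAMP8 group against SAMR1, and of 11 mural cell markers 1 and 2 passed (9.1% in sedentary and 18.2% in exercised SAMP8), where 3.03% and 4.26% of all genes did. The 10 choroid plexus markers, of which 1 was at or above the lower quartile on all arrays, were all positive in sedentary SAMP8 and 8 were positive in exercised SAMP8, and 1 (10.0%) passed in each comparison. Their mean deviation per array ranged between -0.77 and 0.89 in exercised SAMP8, between -0.55 and 1.04 in sedentary SAMP8, and between -1.06 and 0.56 in SAMR1 mice, so the groups overlapped. All 6 cortical neuron markers measured were at or above the lower quartile on every array, so the markers of the labelled tissue were present. The 4 striatal and 4 thalamic markers measured were as well, so this level cannot show whether other regions were absent. Of the 6 cortical neuron markers 1 passed in exercised SAMP8 against SAMR1 mice (16.7%, where 4.26% of all genes did). It was Rorb, of cortical input-layer neurons, lower at -0.86 ± 0.14 (limma adjusted p 0.00237), with -0.18 and -0.44 by its other features. Over the 6 the differences in that comparison were 1 positive and 5 negative with a median of -0.075. Of 6 astrocyte markers 1 passed in sedentary SAMP8 against SAMR1 mice (16.7%, where 3.03% of all genes did). It was Gfap, higher by 0.72 ± 0.14 (limma adjusted p 0.00771), which gave 0.48 in exercised SAMP8 (limma adjusted p 0.0675). Over the 6 the sedentary differences were 4 positive and 2 negative with a median of 0.092. Aqp4 gave 0.16, Gja1 0.14, Slc1a3 0.042, Slc1a2 -0.0066 and Aldh1l1 -0.033. All 4 oligodendrocyte markers measured were negative in both comparisons, with medians of -0.25 in exercised and -0.16 in sedentary SAMP8, and none passed by limma. The part of these cells in the collagen results was not tested.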

How the data were processed

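Total RNA of whole cortex was labelled with Cy3 and hybridised to one-colour Agilent arrays, per the labels' protocols. The authors deposited linear intensity values already normalized between arrays (columns differed by under 0.05 log2 at 96.2% of ranks), and limma is named in the submitters' processing notes. Background correction, slides, scans and the build were not given in the sources used here. Of 45220 features, 34479 had values, of which 27968 had 1 gene symbol, 38 several and 6473 none. Here log2 was taken with no offset, each of 16401 genes took the values of its brightest feature (by mean over all arrays), and all 15 arrays were fitted in 3 groups with limma 3.58.1 (lmFit and eBayes, R 4.3.3) with Benjamini-Hochberg adjustment over all genes and a threshold of 0.05. The procedure was tested on simulated data. Correlations used 100000 permutations within groups. The number of arrays limits precision. The labels call arrays biological replicates; whether an array holds 1 animal or a pool is not stated. The collagens with the smallest p (5 where fewer than 5 passed), the brightest of each subfamily and the pathway genes past the threshold (or the 2 with the smallest p) are named. Members and lists were chosen with earlier results of these data known. The alternatives tried were the mean of features, each feature alone, an offset of 16, a filter on the dimmest 30% of genes, quantile and median scaling, another variance prior, only the 2 groups compared, and leaving out each array.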

Additional observations from a re-analysis of the deposited data

Results flagged for a closer look

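In 7 of 120 groups of 5 arrays, 1 array lay far from the other 4 of its group, by a gap that took up more of the group's range than Dixon's criterion allows. Chance marks about 1 in 20 groups in this way. Col9a2 had 2 of the 7: sedentary SAMP8 replicate 9 was the highest at 9.16 log2 with the others between 8.87 and 8.91, and SAMR1 replicate 2 was the highest at 8.33 with the others between 8.08 and 8.16. Both lay within groups that did not overlap. Col4a6 also had 2: sedentary SAMP8 replicate 8 was the lowest at 7.05, with the others between 7.69 and 7.86, and SAMR1 replicate 3 was the lowest at 7.14, with the others between 7.87 and 8.15. Col6a6 was lowest on sedentary SAMP8 replicate 9, at 3.23 against 5.18 to 5.64, all under the lower quartile of intensities. Col27a1 was lowest on sedentary SAMP8 replicate 6, at 6.41 against 6.60 to 6.64. Col20a1 was lowest on SAMR1 replicate 1, at 5.96 against 6.71 to 6.95.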

How the results depend on the processing

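The number of collagen genes past the threshold between sedentary SAMP8 and SAMR1 mice was 2, and it was 4 with the mean of all features (adding Col1a1 and Col4a6) and 4 when genes with at least 1 feature past the threshold were counted. Leaving out each array in turn gave 2 to 3, the 3 without replicate 10, where Col1a1 passed. Exercised against sedentary SAMP8 mice gave 0 to 0, and exercised SAMP8 against SAMR1 mice 3 to 4, with Col13a1 lost. Of the correlations, that of Col4a1 with Col4a2 passed with the mean of features (0.74), that of Col11a1 with Col11a2 did not (0.51), and 2 that were near 0 changed sign without the 2 farthest arrays: Col4a4 with Col4a5 (-0.13) and Col9a1 with Col9a2 (0.053). Causes were not tested. None of the genes that passed or were named for the smallest p changed sign under the alternatives run, in which a gene fitted by each feature was read by its brightest one. Col4a6, named for its features, did (-0.15 by the brightest, 0.50 with the mean of features). Some dimmer features differed in sign from the brightest, among them features of Col3a1 and Itga1. For exercise against sedentary SAMP8 this held for Col4a3 (0.36 against -0.67), Col5a1 (-0.083 against 0.26) and Sparc (0.091 against -0.34). For Lama2 a dimmer feature gave 0.35 in exercised SAMP8 against SAMR1, where the brightest gave -0.65 and the rest were negative. No paired analysis was possible because the groups share no replicate number. With 5 arrays a group and no detection calls, dim features have little precision.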
